A study of Mus musculus with 60 samples.

Results

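Mouse embryonic stem cells of the line 1A that carry a Cas9-made loss-of-function edit of Eed were compared with unedited 1A wild-type cells, both in serum medium at 0 h, before any 2i inhibitor was added. The comparison rests on the 6 RNA-seq libraries that the sample titles give these genotypes and this time, 3 of each genotype, out of 60 libraries in the series. All 6 came from cells grown on gelatin in medium with fetal bovine serum and LIF, with no inhibitor. The other libraries are a second wild-type line (V19), an Ezh2 knockout of 1A, and the same 4 lines after 12, 24, 48 or 96 h in 2i, an inhibitor pair (CHIR99021 against GSK3 and PD0325901 against MEK). They enter the fit of all 60 libraries. Below they otherwise serve for differences between groups, for levels set beside those of the 6 and, in V19, for sorting genes by level. Each genotype is a single line, so loss of Eed cannot be told apart from any other trait of the edited line. The labels call the 3 libraries of a group biological replicates of that line, so the p-values measure the spread between cultures of 1 line.

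Eed is a core subunit of Polycomb repressive complex 2 (PRC2), the enzyme complex that methylates lysine 27 of histone H3. Eed binds the methylated histone tail and is needed for the activity of both catalytic subunits, Ezh2 and Ezh1. The H3K27me3 mark is read by Cbx subunits of canonical Polycomb repressive complex 1 (PRC1), which compacts chromatin and ubiquitinates histone H2A, and in embryonic stem cells the mark lies mainly over CpG-rich promoters of developmental regulators. PRC2-null embryonic stem cells are known to self-renew in culture while expressing many lineage genes at low levels.

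The 6 libraries held 3990421 to 6901840 gene counts, with 18876 to 20560 genes counted in a wild-type library and 20891 to 21323 in an Eed knockout library. Mitochondrial genes took 0.929% to 1.15% of counts in wild type and 1.35% to 1.48% in the knockout, and whether RNA quality contributes to the changes below was not tested. No pair of libraries in a group was a repeat of the other. All 12 embryonic stem cell markers on the list had counts above the filter in both genotypes, with a summed level of 7159 to 7390.1 CPM in wild type and 5216 to 5463 CPM in the knockout. Levels are given as CPM, counts per 1000000 counts of a library after TMM scaling, with the standard deviation over 3 libraries. Changes are log2 knockout over wild type with their standard error, from edgeR's quasi-likelihood test over all 60 libraries. A gene is called higher or lower at a Benjamini-Hochberg adjusted p under 0.05 over the 15083 genes tested.

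Eed itself (chr7:89603862-89630184 on the minus strand, GRCm39) was the check of the labels. Its level was 383, 345 and 339 CPM in the 3 wild-type libraries and 20.9, 21 and 27.6 CPM in the 3 knockout libraries. The groups were far apart, with a log2 change of -3.94 ± 0.12 (edgeR adjusted p = 3.3e-33), and some Eed counts remained in every knockout library. The labels do not say which exons the edit removed, so what these remaining counts cover was not analysed here. The Ezh2 knockout held 399 to 433 CPM of Eed and V19 393 to 447 CPM, so neither line shared the fall.

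The other core PRC2 subunits changed by less. Suz12, the scaffold of the complex, rose from 200.5 to 276 CPM (0.46 ± 0.11), and Ezh2, the main methyltransferase in these cells, fell from 206 to 173 CPM (-0.25 ± 0.07). The histone chaperone subunit Rbbp4 fell by more (-0.69 ± 0.12) while Rbbp7 rose slightly (0.19 ± 0.08, RUV-normalized -0.13). The Rbbp7 call ended without wild-type replicate 1 or 3 or knockout replicate 1 or 2 (edgeR adjusted p 0.0595 to 0.183), and both it and the Ezh2 call ended without the filter on low counts (adjusted p 0.204 and 0.0799). Ezh1, the alternative methyltransferase, was not called (0.26 ± 0.12), though it passed with a filter at a mean of 1 CPM and in a fit of only the groups compared (edgeR adjusted p 0.0416 and 0.0195). Among 8 accessory subunits, Ezhip, an inhibitor of PRC2 activity, rose from 4.53 to 18.4 CPM (2.07 ± 0.20). Epop rose as well (0.48 ± 0.16), whereas the Polycomb-like subunit Phf19 fell from 25.1 to 12 CPM (-1.06 ± 0.15) and the recruitment factor Jarid2 fell from 1021 to 699 CPM (-0.55 ± 0.11). In the authors' second table, whose values are labelled as normalized by removal of unwanted variation (RUV), the Eed fall shrank to -0.61 and the Ezhip change turned to -0.23. That table is used below only as an alternative to the raw counts.

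Several PRC1 genes changed by more. The Polycomb chromodomain gene Cbx8 (chr11:118929262-118931739 on the minus strand) was at 0.886, 0.978 and 0.761 CPM in wild type and 12.9, 11.7 and 7.92 CPM in the knockout, a change of 3.58 ± 0.29 (edgeR adjusted p = 8.5e-16). Bmi1, a RING partner subunit also known as Pcgf4, went from 7.83, 7.34 and 6.34 CPM to 42.1, 42.1 and 40.8 CPM (2.51 ± 0.13). In both genes every knockout library lay above every wild-type library, as in 30.8% of all genes. Other subunits went the other way. Phc1, a polyhomeotic subunit, fell from 615, 651 and 697 CPM to 303, 273 and 292 CPM (-1.18 ± 0.09). Pcgf2 fell from 82 to 59.3 CPM (-0.47 ± 0.11, RUV-normalized 0.20) and Cbx6 from 84.4 to 60.6 CPM (-0.48 ± 0.09, RUV-normalized 0.02). Cbx7, the main chromodomain subunit of canonical PRC1 in embryonic stem cells, fell from 64.7 to 48.4 CPM (-0.41 ± 0.17), a call that ended without wild-type replicate 1 or 3 or any 1 of the 3 knockout libraries (edgeR adjusted p 0.0555 to 0.166) and with a filter at a mean of 1 CPM (0.0695). The catalytic subunits Rnf2 (0.08 ± 0.09) and Ring1 (0.10 ± 0.18) were not called. Of 12 canonical subunits tested, 5 were called higher and 4 lower, against 26.3% of all genes higher and 23.1% lower. In the RUV-normalized values Cbx8 (1.86) and Bmi1 (1.13) stayed positive, and the change of Phc1 turned to 0.10.

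Variant PRC1 acts without the H3K27me3 mark. Of its 14 subunits tested, 5 were called higher, 3 lower and 6 not called (median 0.00975). Of all genes 26.3% were higher and 23.1% lower, so these counts are not set apart from the background. Pcgf5 rose from 15.7, 12.9 and 14.5 CPM to 74.8, 77 and 68.4 CPM (2.35 ± 0.12). Bcorl1 rose from 3.85 to 20.1 CPM (2.38 ± 0.23), and the corepressor Bcor rose from 63.8 to 191 CPM (1.59 ± 0.14), which became -0.11 in the RUV-normalized values. Pcgf6 fell (-0.58 ± 0.08, RUV-normalized 0.00), as did its partners Mga (-0.57 ± 0.17) and L3mbtl2 (-0.36 ± 0.08, RUV-normalized 0.27). Kdm2b, which brings variant PRC1 to CpG islands, was not called (-0.19 ± 0.16). Of 13 genes on a list of H3K27 demethylases and histone methyltransferases outside PRC2, 2 were higher and 2 lower, against the same shares of all genes. The higher ones were Nsd2 (0.91 ± 0.10) and Kmt2c (0.67 ± 0.15). The lower ones were Nsd1 (-0.67 ± 0.16) and the H3K27 demethylase Kdm6a (-0.45 ± 0.13).

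**Figure D1:**
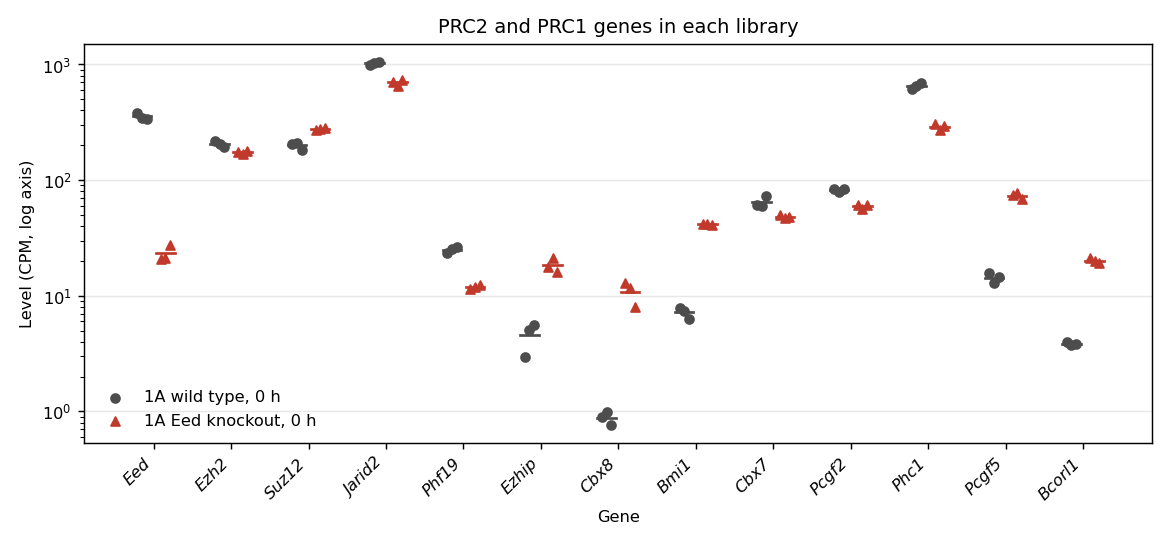
Level of 13 PRC2 and PRC1 genes in each of the 6 libraries, in CPM on a log axis; circles are the 3 wild-type libraries and triangles the 3 Eed knockout libraries at 0 h, and the short bar is the group mean. Eed falls from a mean of 356 to 23.2 CPM, Cbx8, Bmi1, Pcgf5 and Bcorl1 lie higher in every knockout library, and Phc1 lies lower.

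Across the transcriptome 3973 genes (26.3%) were called higher and 3486 (23.1%) lower, and the direction of change differed by size. Counts of list members below are read against these shares. The median called rise was 1.07 on the log2 scale and the median called fall -0.555. At 16-fold or more, 234 genes were higher and 10 lower. In the RUV-normalized values 467 genes were at least 2-fold higher and 569 lower, against 2101 and 722 in the raw counts. Genes called at least 2-fold higher (2101 genes, 13.9%) had a median of 1.59 CPM in wild type and 6.75 CPM in the knockout. Of these, 91 had no count in any wild-type library, and 493 passed the filter on low counts only through Eed knockout libraries of any time. For those 493 a rise was in part given by that filter. Together these 2101 genes held 17428 to 18354 CPM in wild type and 60712 to 63501 CPM in the knockout. The 722 genes at least 2-fold lower (4.79%) went from 31888 to 32996 CPM down to 11923 to 12274 CPM. Among the 14182 genes that passed the filter without any Eed knockout library, 24.5% were higher and 24.5% lower. In bulk RNA, fewer cells with a transcript and less of it per cell cannot be told apart.

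Calls were also counted by the level of a gene in V19, a wild-type line whose libraries are in neither group (in CPM, not per length). A gene near 0 CPM in wild type cannot be called lower, so the lowest classes have no room for falls. Of the 259 genes under 0.1 CPM in V19, 61.8% were higher in the Eed knockout and 0% lower. Between 0.1 and 1 CPM (1566 genes) 42.8% were higher and 2.17% lower. Between 10 and 100 CPM (6467 genes) the shares were 23.8% and 25.7%. At 100 CPM or more (2441 genes) 9.26% were higher and 49.2% lower. With the filter applied without Eed knockout libraries, the group under 0.1 CPM kept 56 genes, of which 51.8% were higher and 0% lower. Over the autosomes and X, the share called higher ran from 16.8% on chromosome 17 to 32.0% on chromosome 9, and the median log2 change of an autosome stayed between -0.0905 and 0.0918. V19 has a median of 0.402 on chromosome 8 against 1A wild type, where the Eed knockout has -0.0473.

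**Figure D2:**
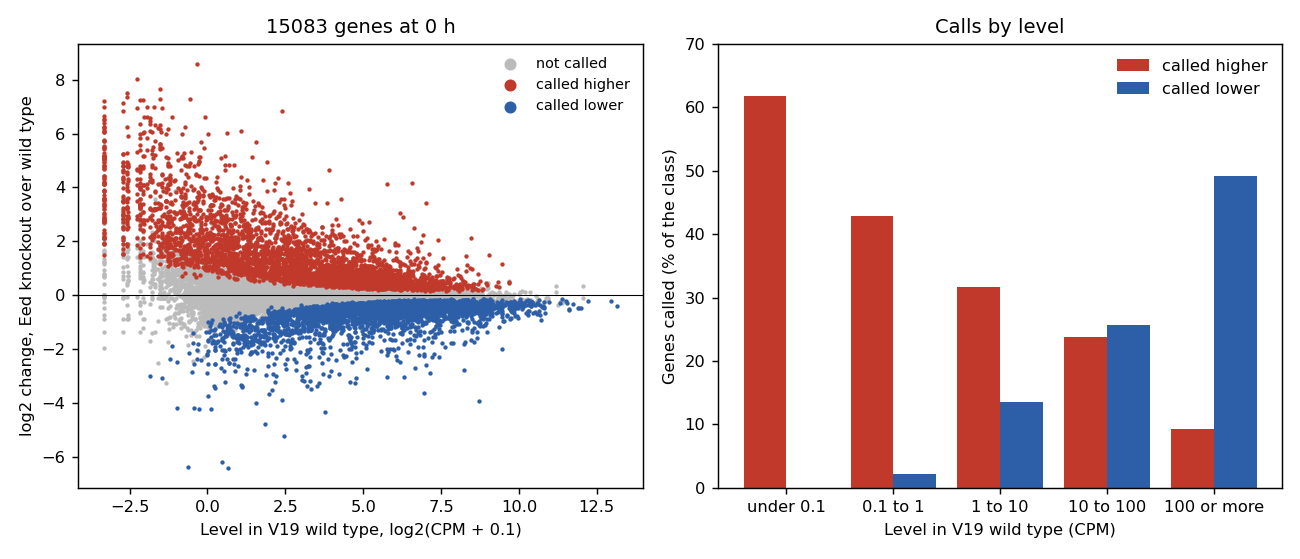
Left panel, log2 change in the Eed knockout (vertical) against the level in V19 wild type (horizontal, log2 of CPM + 0.1) for 15083 genes, coloured by call; right panel, percent of the genes in each V19 level class called higher or lower. The share called higher drops from 61.8% under 0.1 CPM to 9.26% at 100 CPM or more, while the share called lower rises from 0%, where a fall cannot be called, to 49.2%.

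The largest rises joined genes of unrelated kinds. Foxf2, a forkhead factor of gut and craniofacial mesenchyme, had no count in wild type and stood at 4.87, 5.04 and 6.07 CPM in the knockout, at least 29.9-fold higher against a floor of 3 counts over the wild-type group. Hand1, a factor of trophoblast giant cells and extraembryonic mesoderm, went from 2.22, 3.1 and 2.28 CPM to 169, 179 and 153 CPM (6.02 ± 0.18). Pitx1, a hindlimb homeobox factor, went from 0.148, 0.163 and 0.254 CPM to 15.6, 11.8 and 11.5 CPM (6.03 ± 0.37). Fbp2, the muscle isoform of fructose-1,6-bisphosphatase, went from 0.739, 0.978 and 0.508 CPM to 58.9, 55.3 and 50.2 CPM (6.11 ± 0.19). Capn6, a calpain-family gene, went from 0, 0.489 and 0.254 CPM to 17.8, 17.6 and 13.8 CPM (5.99 ± 0.44). The chitinase gene Chit1 (6.62 ± 0.57), the odd-skipped factor Osr2 (6.26 ± 0.55) and Csf1r, the macrophage growth factor receptor (6.21 ± 0.46), rose from under 0.1 CPM. In the RUV-normalized values all of these rises were smaller, from 3.13 in Fbp2 down to 0.93 in Pitx1, 0.70 in Csf1r and 0.35 in Hand1. These genes were chosen for a lack of overlap between the 2 groups, which 30.8% of all genes had on the higher side. H19 had the largest gain in CPM, from 16 ± 1.87 to 1802 ± 117 CPM (6.83 ± 0.15), but its change was -0.16 in the RUV-normalized values.

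Among the same 12 largest rises were Zscan4d (0.0543 to 7.8 CPM, 6.62 ± 0.64), Zscan4c (0.0543 to 5.11 CPM, 6.0 ± 0.67) and Eif4a3l1 (0.0985 to 9.15 CPM, 6.04 ± 0.53), genes of the 2-cell embryo or of its transient state in culture. Zscan4 copies are nearly identical and Eif4a3l1 is a copy of Eif4a3, so how reads were split among copies is uncertain. RefSeq promoter windows were at hand for 7 of the 12 genes, and the 250 bases before the start of 6 genes are shown to set side by side 2 kinds of sequence in front of genes that rose: Foxf2, with Cbx8 and Hoxd13 as examples from the PRC1 and Hox lists, against Fbp2, Zscan4d and Eif4a3l1. Each runs 5′ to 3′ on the gene's strand, with every CpG in capitals, in build GRCm38.p6, which differs from the GRCm39 positions of the count table.
Foxf2 (chr13:31625566-31625815, plus strand): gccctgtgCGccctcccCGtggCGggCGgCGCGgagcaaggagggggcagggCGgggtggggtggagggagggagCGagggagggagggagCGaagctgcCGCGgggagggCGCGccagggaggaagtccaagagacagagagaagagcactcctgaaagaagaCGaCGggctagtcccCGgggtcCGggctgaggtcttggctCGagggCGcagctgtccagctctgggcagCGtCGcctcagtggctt
Hoxd13 (chr2:74667975-74668224, plus strand): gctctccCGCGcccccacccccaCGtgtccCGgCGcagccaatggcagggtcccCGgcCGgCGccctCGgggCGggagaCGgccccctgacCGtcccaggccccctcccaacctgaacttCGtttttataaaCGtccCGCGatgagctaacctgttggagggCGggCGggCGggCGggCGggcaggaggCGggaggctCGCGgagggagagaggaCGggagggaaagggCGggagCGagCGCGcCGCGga
Cbx8 (chr11:119040914-119041163, minus strand): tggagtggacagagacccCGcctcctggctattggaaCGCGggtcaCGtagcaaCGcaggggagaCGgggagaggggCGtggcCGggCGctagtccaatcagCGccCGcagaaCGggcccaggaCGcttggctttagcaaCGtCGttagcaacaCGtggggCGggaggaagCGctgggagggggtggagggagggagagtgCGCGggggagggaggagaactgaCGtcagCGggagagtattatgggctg
Fbp2 (chr13:62858401-62858650, minus strand): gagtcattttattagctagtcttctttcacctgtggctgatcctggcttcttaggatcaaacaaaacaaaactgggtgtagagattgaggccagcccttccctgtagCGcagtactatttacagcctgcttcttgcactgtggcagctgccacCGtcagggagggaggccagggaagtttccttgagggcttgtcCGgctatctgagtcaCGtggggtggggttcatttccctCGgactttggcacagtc
Zscan4d (chr7:11166149-11166398, minus strand): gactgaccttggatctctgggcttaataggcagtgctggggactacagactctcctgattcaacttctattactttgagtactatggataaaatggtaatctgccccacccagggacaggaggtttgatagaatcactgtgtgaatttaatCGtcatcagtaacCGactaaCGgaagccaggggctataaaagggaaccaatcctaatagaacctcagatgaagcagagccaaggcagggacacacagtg
Eif4a3l1 (chr6:136327289-136327538, plus strand): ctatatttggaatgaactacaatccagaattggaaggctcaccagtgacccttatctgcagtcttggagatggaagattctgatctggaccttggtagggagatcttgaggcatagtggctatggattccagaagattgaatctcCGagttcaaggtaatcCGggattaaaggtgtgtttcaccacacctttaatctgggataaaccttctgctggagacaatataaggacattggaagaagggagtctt

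The letters CG, the same on both strands, occurred 21 times before Foxf2, 31 times before Hoxd13 and 22 times before Cbx8. They occurred 5 times before Fbp2, 3 times before Zscan4d and 2 times before Eif4a3l1. Of all 32851 windows, cut to the same 250 bases, 14.8% held as many CG as that of Cbx8 or more and 5.19% as many as that of Hoxd13 or more. The median window held 6. The windows of Fbp2, Zscan4d and Eif4a3l1 lay below that median. As few CG as that of Fbp2 or fewer were held by 49.6% of windows, and as few as that of Zscan4d or fewer by 37.8%. Windows of Chit1, Zscan4c and Capn6, also among the 12 largest rises, are not shown. Cbx8 and Hoxd13 are not among those rises, so the windows shown do not tell how common either kind is there.

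The largest falls were smaller than the largest rises and included neuronal and endocrine genes. Foxp1, a forkhead factor with an isoform known in embryonic stem cells, went from 149.5, 132 and 158 CPM to 11.6, 11.8 and 11.6 CPM (-3.64 ± 0.14). Insm1, a zinc-finger factor of neuroendocrine cells, went from 35.2, 45.2 and 52.5 CPM to 4.71, 3.3 and 5.56 CPM (-3.27 ± 0.21). Neurod1, a neurogenic bHLH factor, went from 25.1, 21.8 and 23.3 CPM to 2.2, 3.48 and 2.19 CPM (-3.16 ± 0.20). These genes too were chosen for a lack of overlap, which 29.8% of all genes had on the lower side. The neuronal gene Atcay (-4.34 ± 0.34), the G-protein subunit gene Gna14 (-3.37 ± 0.24), the GTPase gene Rragb (-3.25 ± 0.18), the POU factor gene Pou2f2 (-3.39 ± 0.38) and the epithelial Rab gene Rab25 (-3.18 ± 0.24) fell alike. All of these kept a negative change in the RUV-normalized values, from -3.35 in Gna14 to -1.20 in Rragb. In CPM, the largest losses were led by the chaperone gene Hsp90ab1 (8487 to 6322 CPM, -0.42 ± 0.06), the pyruvate kinase gene Pkm (3468 to 2335 CPM, -0.57 ± 0.06) and the nucleolar gene Ncl (3895 to 2801 CPM, -0.48 ± 0.07), whose RUV-normalized changes were -0.06, -0.07 and 0.01.

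Families of developmental transcription factors did not all move alike. Hox genes were called higher in every cluster: 8 of 8 tested Hoxa genes, 5 of 5 Hoxb, 9 of 9 Hoxc and 7 of 7 Hoxd, of 39 listed, against 26.3% of all genes. Of these 29, 19 passed the filter without Eed knockout libraries. In the RUV-normalized values 2 Hoxa, 3 Hoxb, 4 Hoxc and 3 Hoxd genes were called higher and 0 lower. Levels stayed low, with Hoxd13 at 21.1, 17.7 and 19.2 CPM against 2.51, 1.3 and 2.03 CPM in wild type and Hoxc13 at 9.58, 10.6 and 8.76 CPM against 0.591, 1.79 and 1.27 CPM. Genes from both ends of the clusters were among those called, from Hoxd1 to Hoxa13, Hoxb13, Hoxc13 and Hoxd13. The summed level of the Hoxd cluster was 2.12 to 3.3 CPM in wild type and 33.6 to 40.8 CPM in the knockout.

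Of 96 homeobox genes outside the Hox clusters, 62 were tested, and 47 of them were higher and 1 lower (median 2.36, and 0.581 in the RUV-normalized values). Counting only the 43 that passed without Eed knockout libraries, 32 were higher and 1 lower. Cdx2, a trophectoderm and hindgut factor, went from 1.03, 1.14 and 1.02 CPM to 23.1, 27 and 18.7 CPM (4.40 ± 0.27). Msx2, a BMP-responsive factor, went from 2.51, 1.96 and 1.52 CPM to 22.5, 27.1 and 19.4 CPM (3.46 ± 0.21). Meis2 (2.57 ± 0.17), Dlx3 (3.55 ± 0.24, RUV-normalized -0.08) and Barx1 (2.95 ± 0.22) rose too. The call of the lower member ended without wild-type replicate 1 or 3 or knockout replicate 2 or 3. Hhex was not called (-0.27 ± 0.19).

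T-box genes were higher in 7 of 9 tested and lower in none, against 26.3% and 23.1% of all genes. With the filter applied without Eed knockout libraries, 5 of 6 were higher, and in the RUV-normalized values 3 of 9 were. Tbx3, which acts in pluripotency and in endoderm, went from 28.5, 31.5 and 31.5 CPM to 234, 218 and 228 CPM (2.90 ± 0.11, RUV-normalized 2.52). Eomes, a factor of trophoblast stem cells and mesendoderm, rose from 3.33 to 21.3 CPM (2.69 ± 0.20), and Tbx20, a cardiac factor, from 3.76 to 24.6 CPM (2.77 ± 0.21). Of the Gata factors, Gata4 (3.94 ± 0.17), Gata6 (4.16 ± 0.19), Gata3 (3.41 ± 0.18) and Gata2 (2.66 ± 0.14, RUV-normalized -0.17) rose while Gata1 was not called (0.38 ± 0.36).

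Sox genes went both ways, with 4 of 16 tested higher and 9 lower, against 26.3% and 23.1% of all genes (median -0.565, RUV-normalized -0.533). The endoderm factors Sox17 (1.19 to 60 CPM, 5.70 ± 0.25) and Sox7 (3.15 to 36.8 CPM, 3.59 ± 0.21) rose. The neural and progenitor factors Sox11 (62.9, 56.9 and 60.7 CPM to 21.5, 17.4 and 17 CPM, -1.69 ± 0.13) and Sox12 (107, 128 and 125 CPM to 40.8, 43.8 and 41.8 CPM, -1.50 ± 0.11) fell. Sox4 (-0.64 ± 0.13), Sox13 (-0.57 ± 0.11) and the endothelial factor Sox18 (-2.75 ± 0.47) fell as well. Sox2, the pluripotency factor, fell from 549 to 297 CPM (-0.89 ± 0.06), which was 0.13 in the RUV-normalized values.

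Of 33 Fox genes tested 14 were higher and 8 lower, against 26.3% and 23.1% of all genes (median 0.0435, 0.0828 to 0.281 when 1 library was left out in turn, RUV-normalized -0.0185). With the filter applied without Eed knockout libraries, 8 of 26 were higher and 8 lower (median -0.0434). The endoderm factor Foxa2 (0.714 to 14.5 CPM, 4.43 ± 0.33) and Foxq1 (2.51 to 45.9 CPM, 4.29 ± 0.23) rose beside Foxf2, and Foxo3 rose slightly (0.94 ± 0.13). Beside Foxp1, the family members Foxo1 (-0.53 ± 0.09), Foxn3 (-0.72 ± 0.11) and Foxp4 (-0.53 ± 0.12) fell. Of 4 Pax genes tested, Pax1 (3.45 ± 0.37) and Pax3 (3.32 ± 0.98, RUV-normalized -0.19) rose, and Pax6 (-1.66 ± 0.26) and Pax8 (-1.87 ± 0.50) fell. Pax1 and Pax3 passed the filter only through Eed knockout libraries, so their rise was in part given by that choice. In the neurogenic bHLH group Neurog1 rose from 0.421 to 5.23 CPM (3.58 ± 0.39) while Olig1 fell from 45.8 to 17.6 CPM (-1.38 ± 0.14).

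Genes that build basement membrane rose together and to high levels. Parietal endoderm, an extraembryonic lineage, is known for secreting a thick basement membrane of type IV collagen and laminin. Of 21 such genes tested, 17 were higher and 1 lower, against 26.3% and 23.1% of all genes (median 1.23, RUV-normalized 0.554). Their summed level was 3248 to 3770.3 CPM in wild type and 9896 to 10682 CPM in the knockout. The type IV collagen chains Col4a1 and Col4a2, head-to-head neighbours on chromosome 8, moved by nearly the same amount. Col4a1 went from 69.6, 79.1 and 74.6 CPM to 1343, 1293 and 1322 CPM (4.15 ± 0.20), and Col4a2 from 44, 46.3 and 48.2 CPM to 843, 765 and 833 CPM (4.14 ± 0.20). All 3 chains of laminin-111 rose: Lama1 from 97.8, 120.5 and 116 CPM to 1228, 1079.9 and 1277 CPM (3.43 ± 0.24), Lamb1 from 217 ± 10.3 to 895 ± 36.9 CPM (2.05 ± 0.12) and Lamc1 from 479 ± 44.1 to 1335 ± 96.4 CPM (1.48 ± 0.21). The knockout libraries lay above the wild-type libraries for each of these 5 genes, as for 30.8% of all genes.

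The matrix protein Sparc went from 309.8, 329 and 322 CPM to 1445, 1449 and 1326 CPM (2.14 ± 0.06). The collagen chaperone Serpinh1 (96.7 to 544 CPM, 2.49 ± 0.07) and the collagen-modifying enzymes P4ha2 (3.42 ± 0.14) and Plod2 (2.05 ± 0.11) rose with the chains they process. Nid1 (0.70 ± 0.20), Nid2 (0.50 ± 0.15) and the proteoglycan Hspg2 (0.90 ± 0.28) rose less. Col18a1, the chain of collagen XVIII, fell from 685 to 316 CPM (-1.12 ± 0.12, RUV-normalized -0.10). Over all collagens 16 of 31 tested were higher and 4 lower, with a median of 1.24 that became -0.0985 in the RUV-normalized values, and with the filter applied without Eed knockout libraries 12 of 22 were higher and 4 lower.

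The transcription factors of primitive endoderm, the precursor of parietal and visceral endoderm, were higher in 8 of 8, against 26.3% of all genes. Among them were Gata4, Gata6, Sox17, Sox7, Foxa2 and Foxq1. Genes of nutrient carriage and uptake, which mark visceral endoderm, were divided. Of 24 listed 15 were tested, 6 of them higher and 3 lower, against 26.3% and 23.1% of all genes. The median was 0.114 (0.0462 to 0.402 when 1 library was left out in turn). The uptake receptors Cubn (9.9, 9.46 and 11.2 CPM to 116, 96.5 and 144 CPM, 3.56 ± 0.22) and Lrp2 (1.22 ± 0.22, RUV-normalized -0.17), and their adaptor Dab2 (8.85 to 94.8 CPM, 3.42 ± 0.18), rose. The carriers Apoe (-0.71 ± 0.11, RUV-normalized 0.40) and Apoa2 (-2.25 ± 0.24) fell. Afp, Ttr, Alb, Apob and Apoa4 were below the filter.

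**Figure D3:**
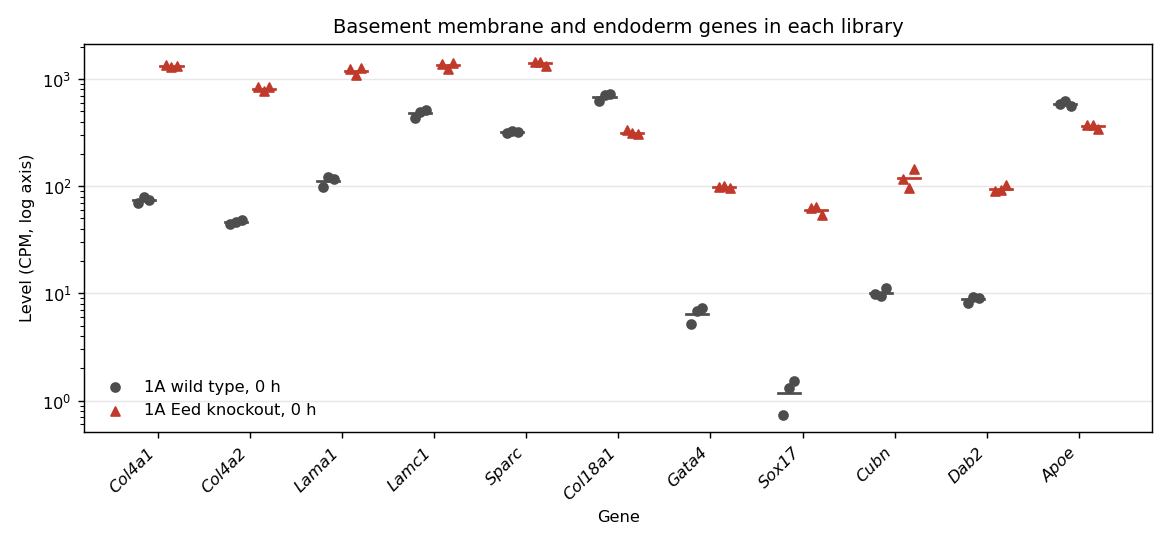
Level of 11 basement membrane and endoderm genes in each of the 6 libraries, in CPM on a log axis, drawn as in the plot of PRC2 and PRC1 genes. Col4a1, Col4a2, Lama1, Lamc1 and Sparc lie above 700 CPM in every knockout library, Cubn, Dab2, Gata4 and Sox17 rise from lower levels, and Apoe and Col18a1 lie lower.

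Keratins, claudins and other epithelial genes rose in the raw counts and did not in the RUV-normalized values. Of 12 keratins tested 7 were higher and 3 lower (median 1.39, and 0.439 over the 10 that passed the filter without Eed knockout libraries), while the RUV-normalized median was -0.779 with 0 higher and 7 lower. Krt8, the simple-epithelium keratin, went from 109.6, 128 and 105 CPM to 772, 824 and 636 CPM (2.71 ± 0.12, RUV-normalized -0.58), and its partner Krt18 from 112, 121 and 97.2 CPM to 791, 877 and 628 CPM (2.79 ± 0.12, RUV-normalized -0.79). Krt42 (-2.48 ± 0.14) and Krt17 (-1.49 ± 0.15) were negative under both scalings. Of 9 claudins 6 were higher and 1 lower (median 1.14, RUV-normalized -0.668), and of 26 contractile actin and YAP target genes 16 were higher and 7 lower (median 0.943, RUV-normalized -0.595). The annexin gene Anxa2 (51.9 to 272 CPM, 2.39 ± 0.12, RUV-normalized 0.16) and the YAP targets Ankrd1 (4.35 ± 0.28, RUV-normalized 0.61) and Lats2 (2.06 ± 0.17, RUV-normalized 0.39) kept their sign. Cdh1, the epithelial cadherin, was not called (-0.00 ± 0.08).

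Ligands, antagonists and receptors of the Wnt pathway did not move as one. Of 13 Wnt ligands tested 7 were higher and 0 lower, against 26.3% and 23.1% of all genes (median 0.971). The RUV-normalized median, though, was -0.589 with 1 higher and 3 lower. Wnt6 (1.23 to 14.1 CPM, 3.42 ± 0.26, RUV-normalized 1.62) and Wnt11 (0.976 to 12.2 CPM, 3.75 ± 0.33, RUV-normalized 0.89) were higher under both scalings, and Wnt7b turned from 1.40 ± 0.13 to -1.15. The secreted Wnt antagonists Dkk1 (0.886, 0.489 and 0.254 CPM to 16.3, 17.7 and 17.7 CPM, 4.82 ± 0.28) and Sfrp1 (25.5 to 57.9 CPM, 1.18 ± 0.10) rose. Notum, a Wnt-inactivating enzyme and feedback target, fell from 29.7 to 12.2 CPM (-1.27 ± 0.13), as did the receptor genes Fzd7 (-1.12 ± 0.11, RUV-normalized 0.05) and Lgr4 (-0.55 ± 0.11).

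Of 18 TGF-beta and BMP ligands tested 10 were higher and 4 lower, against 26.3% and 23.1% of all genes (median 0.827, RUV-normalized 0.137). Bmp2 (0.633 to 10 CPM, 3.91 ± 0.32) and Bmp6 (2.27 to 15.9 CPM, 2.74 ± 0.26) rose, while Bmp4 was not called (0.21 ± 0.11). The Nodal antagonists split, with Lefty2 higher (18.7 to 63.6 CPM, 1.75 ± 0.13) and Lefty1 lower (38.7 to 13.1 CPM, -1.56 ± 0.17), and Nodal was not called (0.04 ± 0.11). BMP antagonists and Id targets were higher in 8 of 14, among them Bmper (3.59 ± 0.27), Nog (2.69 ± 0.34), Smad6 (1.60 ± 0.16) and Id2 (2.01 ± 0.16), but not Id1 (-0.20 ± 0.15). In the FGF group the receptor genes Fgfr3 (1.0 to 8.9 CPM, 3.05 ± 0.37) and Fgfr4 (4.15 to 13.5 CPM, 1.67 ± 0.23) and the ligand Fgf10 (3.46 ± 0.37) rose, and the embryonic stem cell ligand Fgf4 fell from 252 to 159 CPM (-0.66 ± 0.07, RUV-normalized 0.21).

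Of 21 Hedgehog and Notch ligands, receptors and targets tested, 3 were higher and 8 lower, against 26.3% and 23.1% of all genes. The median was -0.171 (RUV-normalized -0.252). With the filter applied without Eed knockout libraries 1 of 18 was higher and 8 were lower. Gli1, a direct transcriptional target, went from 83.6, 85.3 and 81.2 CPM to 15.2, 16.5 and 14.8 CPM (-2.43 ± 0.16, RUV-normalized -0.13). Ptch1, a receptor gene and also a target, went from 111, 121 and 133 CPM to 30.2, 30.1 and 29.8 CPM (-2.01 ± 0.17, RUV-normalized -1.13). The knockout libraries lay below all wild-type libraries in both genes, as in 29.8% of all genes. The ligand Ihh went from 0.295, 0.489 and 0.254 CPM to 5.34, 5.74 and 4.89 CPM (3.83 ± 0.49), passing the filter only through Eed knockout libraries, and Shh was below the filter. The Notch ligands Dll3 (-1.66 ± 0.17), Dll1 (-0.86 ± 0.24) and Jag1 (-0.91 ± 0.16) fell, whereas the target Hes1 rose (0.62 ± 0.16).

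Retinoid pathway genes moved in both directions, with 11 of 18 tested higher and 6 lower, against 26.3% and 23.1% of all genes (median 0.943). In the RUV-normalized values 2 were higher and 4 lower (median -0.0794). The receptor gene Rara went from 84.4, 90.3 and 89.1 CPM to 18.7, 17.6 and 19.4 CPM (-2.24 ± 0.11) and Rarg from 408 ± 19.9 to 223 ± 9.89 CPM (-0.87 ± 0.08, RUV-normalized 0.43), whereas the partner receptor Rxra rose (1.04 ± 0.12, RUV-normalized -0.14). The retinol-uptake receptor Stra6 rose from 1.32 to 12.5 CPM (3.17 ± 0.32), the synthesis enzyme Aldh1a3 from 1.18 to 5.48 CPM (2.12 ± 0.34) and the degrading enzyme Cyp26a1 from 3.44 to 11.7 CPM (1.78 ± 0.21, RUV-normalized -0.93).

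Cyclin-dependent kinase inhibitors were higher in 6 of 7 and lower in none, against 26.3% and 23.1% of all genes. Cdkn2a, which encodes p16Ink4a and p19Arf and is a known Polycomb target, went from 11.5, 12.4 and 10.7 CPM to 33.8, 35.5 and 30 CPM (1.51 ± 0.20). Cdkn1a, encoding p21, went from 27.5, 26.6 and 24.1 CPM to 68.8, 72.9 and 63.3 CPM (1.38 ± 0.08). Cdkn2c rose from 1.45 to 5.64 CPM (1.97 ± 0.29) and Cdkn2d from 12.1 to 16 CPM (0.41 ± 0.17). The Cdkn2d call ended without replicate 1 or 2 of either genotype (edgeR adjusted p 0.0504 to 0.167) and without the filter on low counts (0.0631). Cdkn2b (1.06 ± 0.24) and the imprinted Cdkn1c (0.79 ± 0.11) rose in the raw counts but were -0.75 and -2.43 in the RUV-normalized values. Cdkn1b was not called (-0.17 ± 0.10). Of 23 p53 pathway genes 13 were higher and 6 lower, against the same shares of all genes (median 0.326, RUV-normalized 0.00399). Btg2 (1.65 ± 0.12), Phlda3 (1.16 ± 0.15) and Perp (1.02 ± 0.13, RUV-normalized -0.38) were higher, and Trp53 itself was lower (-0.54 ± 0.07, RUV-normalized 0.06). Without wild-type replicate 1 or knockout replicate 3 the count of lower genes was 3.

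Pluripotency genes differed by list. All 10 genes on the list of core pluripotency factors, which does not hold Nanog, were lower (median -0.769), against 23.1% of all genes. In the RUV-normalized values 0 of the 10 were called in either direction (median 0.0902). Of 20 naive factors 8 were higher and 6 lower, against 26.3% and 23.1% of all genes (median -0.0268). In the RUV-normalized values 14 were higher and 1 lower (median 0.637). Nanog rose from 226, 227 and 222 CPM to 444, 427 and 438 CPM (0.96 ± 0.08), and the naive factors Prdm14 (6.96 to 22.9 CPM, 1.73 ± 0.12), Tfcp2l1 (174 to 320.0 CPM, 0.88 ± 0.16) and Klf4 (118 to 173 CPM, 0.56 ± 0.15) rose, each with a positive RUV-normalized change. Gbx2 (156 to 46.9 CPM, -1.73 ± 0.10, RUV-normalized 0.20) and Nr0b1 (209 to 99.1 CPM, -1.08 ± 0.09, RUV-normalized 0.62) fell in the raw counts only. Esrrb was not called (0.15 ± 0.10). Of 19 formative and primed genes 1 was higher and 11 lower, against the same shares of all genes (median -0.50, RUV-normalized -0.581). Pou3f1 (-1.05 ± 0.12) and Lef1 (-1.22 ± 0.15) were among those that fell.

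The de novo DNA methyltransferase Dnmt3a had the largest fall among DNA methylation genes, from 675, 699 and 711 CPM to 169, 173 and 178 CPM (-2.0 ± 0.10, RUV-normalized -1.68). Its paralog Dnmt3b fell less (979.9 to 802 CPM, -0.29 ± 0.10), a call that ended without wild-type replicate 3 or knockout replicate 2 (edgeR adjusted p 0.0581 and 0.0541), and their cofactor Dnmt3l was not called (0.12 ± 0.11). The 5-methylcytosine dioxygenase Tet1 fell from 527, 511 and 558 CPM to 247, 202 and 328 CPM (-1.04 ± 0.18, RUV-normalized -0.17), and Tet2 was not called (-0.05 ± 0.25). The maintenance factor gene Uhrf1 fell slightly (-0.46 ± 0.11, RUV-normalized 0.06). Of 26 tested genes of a germline list known for promoter methylation, 22 were higher and 0 lower, against 26.3% and 23.1% of all genes. Examples are Dazl (7.71 to 32 CPM, 2.06 ± 0.17), Mael (13.3 to 58.5 CPM, 2.11 ± 0.13) and Sohlh2 (4.55 to 31.6 CPM, 2.80 ± 0.17). In the RUV-normalized values 12 were higher and 1 lower (median 0.459 against 1.77). In the Ezh2 knockout 21 of the list were higher than in wild type and 0 lower. Whether the methylation enzymes bear on this list was not tested.

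Imprinted genes moved in both directions. In the Dlk1 and Meg3 domain the noncoding RNAs Meg3 (-3.05 ± 0.14), Rian (149, 135 and 148 CPM to 20.3, 19.3 and 26.3 CPM, -2.71 ± 0.13) and Mirg (-2.63 ± 0.27) and the retrotransposon-derived Rtl1 (-2.57 ± 0.29) fell together, while Dio3, a deiodinase gene at the end of the domain, rose from 1.77, 3.1 and 2.03 CPM to 32.4, 36.2 and 27.1 CPM (3.77 ± 0.21). Dlk1 rose from 6.28 to 10.9 CPM (0.80 ± 0.19, RUV-normalized -0.26). The library kit named in the labels keeps no strand, so reads of Rtl1 and of the RNA antisense to it cannot be told apart. Elsewhere Peg10 (514 to 1113 CPM, 1.12 ± 0.13, RUV-normalized -1.72) and Igf2r (88.8 to 204 CPM, 1.21 ± 0.22, RUV-normalized -0.04) were higher in the raw counts only. Nnat (-1.29 ± 0.21) and Zdbf2 (-0.85 ± 0.18) fell. Of 23 genes tested on a list of imprinting by maternal H3K27me3, 14 were higher and 5 lower (median 0.469, RUV-normalized -0.069). Of all genes 26.3% were higher and 23.1% lower. The amino acid transporter gene Slc38a4 was not called in the raw counts (0.19 ± 0.10), was called higher in a fit of only the groups compared (edgeR adjusted p = 0.00371) and was lower in the RUV-normalized values (-1.14, limma adjusted p = 1.5e-14).

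Neuronal and synaptic genes were lower more than higher, 10 against 5 of 22 tested (median -0.473, RUV-normalized -0.401). Of all genes 23.1% were lower and 26.3% higher. The intermediate filament gene Ina went from 174, 188 and 174 CPM to 23.1, 25.6 and 23.4 CPM (-2.90 ± 0.12), Gap43 from 16.3 to 6.55 CPM (-1.30 ± 0.20) and Elavl3 from 12.5 to 6.74 CPM (-0.87 ± 0.20). Nefm rose from 3.02 to 17.5 CPM (2.53 ± 0.23). Of 13 clustered protocadherins tested, 1 was higher, Pcdhgc3 (0.66 ± 0.28), and 0 lower. The Pcdhgc3 call ended without replicate 1 or 2 of either genotype (edgeR adjusted p 0.0815 to 0.154).

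Lysosomal genes were higher in 23 of 30 tested and lower in 3, against 26.3% and 23.1% of all genes (median 0.501, RUV-normalized 0.124). The cathepsin Ctsl went from 123, 127 and 109 CPM to 372, 383 and 363 CPM (1.64 ± 0.09). Ctsh rose from 0.455 to 14.2 CPM (4.85 ± 0.36), the asparaginyl endopeptidase Lgmn from 47.2 ± 2.42 to 172 ± 4.52 CPM (1.87 ± 0.10) and Psap, the saposin precursor, from 203 ± 15.1 to 528 ± 36.9 CPM (1.38 ± 0.09). Their summed level was 2014 to 2129 CPM in wild type and 3639.5 to 3848 CPM in the knockout. The membrane protein gene Scarb2 fell from 107 to 47.4 CPM (-1.17 ± 0.09).

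Genes of glucose uptake and glycolysis moved in both directions, with 7 of 27 higher and 13 lower against 26.3% and 23.1% of all genes (median -0.215, RUV-normalized -0.0992). The glucose transporter Slc2a3 rose from 677, 699 and 725 CPM to 1576, 1549 and 1503 CPM (1.14 ± 0.09), Hk1 from 38.9 to 82.3 CPM (1.08 ± 0.12) and the phosphofructokinase Pfkp from 89 to 198 CPM (1.16 ± 0.11). Pdk1, the pyruvate dehydrogenase kinase, fell from 252, 239.7 and 245 CPM to 73.4, 67.8 and 73 CPM (-1.78 ± 0.12). Eno1 (-0.75 ± 0.08), Gapdh (-0.70 ± 0.11) and Ldha (-0.37 ± 0.09) fell, with RUV-normalized changes of -0.07, -0.11 and -0.39. Of 83 cytosolic ribosomal protein genes 2 were higher and 8 lower and of 90 nuclear oxidative phosphorylation genes 0 were higher and 11 lower, below the shares over all genes. When 1 library was left out in turn the count of lower genes was 3 to 8 for ribosomal proteins and 4 to 11 for oxidative phosphorylation. Of 25 cholesterol synthesis genes 6 were higher and 6 lower.

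Of 37 interferon-stimulated and RNA-sensing genes tested 13 were higher and 4 lower, against 26.3% and 23.1% of all genes (median 0.207, 0.216 to 0.513 when 1 library was left out in turn). With the filter applied without Eed knockout libraries, 8 of 25 were higher and 4 lower (median 0.0539), and in the RUV-normalized values 2 were higher and 18 lower (median -0.741). The class I genes H2-D1 (9.58 to 52.7 CPM, 2.45 ± 0.12, RUV-normalized -0.38) and H2-K1 (12.2 to 40.3 CPM, 1.70 ± 0.16, RUV-normalized -0.74), the peptide transporter Tap1 (2.16 ± 0.18, RUV-normalized -0.69) and B2m (6.9 to 24.1 CPM, 1.77 ± 0.24, RUV-normalized 0.23) rose in the raw counts. Class I genes are close copies of each other, so their reads may be split. Ifitm3 went from 169.6, 169 and 157 CPM to 32.7, 41 and 35 CPM (-2.19 ± 0.17) and Ifitm1 from 103, 101 and 105 CPM to 20.1, 21.6 and 21.9 CPM (-2.28 ± 0.16), both negative in the RUV-normalized values too.

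Lists of other cell types were read for their summed levels. Trophoblast genes were higher in 19 of 19 tested, summing to 239 to 262 CPM in wild type and 1024 to 1221 CPM in the knockout (median 2.61), and in the RUV-normalized values 5 were higher and 2 lower (median 0.142). The primitive endoderm factors summed to 14.3 to 19.8 CPM in wild type and 320.0 to 336 CPM in the knockout. Of 18 fibroblast and feeder markers 13 were tested, 10 of them higher and 1 lower, against 26.3% and 23.1% of all genes. With the filter applied without Eed knockout libraries, 6 of 8 were higher and 1 lower. In the RUV-normalized values 1 was higher and 1 lower (median -0.259 against 1.57). The summed level of the list was 36.2 to 42.9 CPM in wild type and 90.3 to 98.3 CPM in the knockout. Col3a1, Dcn and Lum were below the filter. Of 18 endothelial and blood markers 13 were tested, 7 higher and 2 lower (1 lower without wild-type replicate 2 or 3 or knockout replicate 3), summing to 132 to 151 CPM in wild type and 224 to 234 CPM in the knockout. Flt1, a VEGF receptor also made by trophoblast, went from 4.88, 5.71 and 5.84 CPM to 65.4, 64.7 and 69.9 CPM (3.62 ± 0.16), while Tek, the angiopoietin receptor gene, fell (-0.75 ± 0.19) and the blood markers Ptprc and Hba-x were below the filter. Whether other cell types contribute to these changes was not tested.

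**Figure D4:**
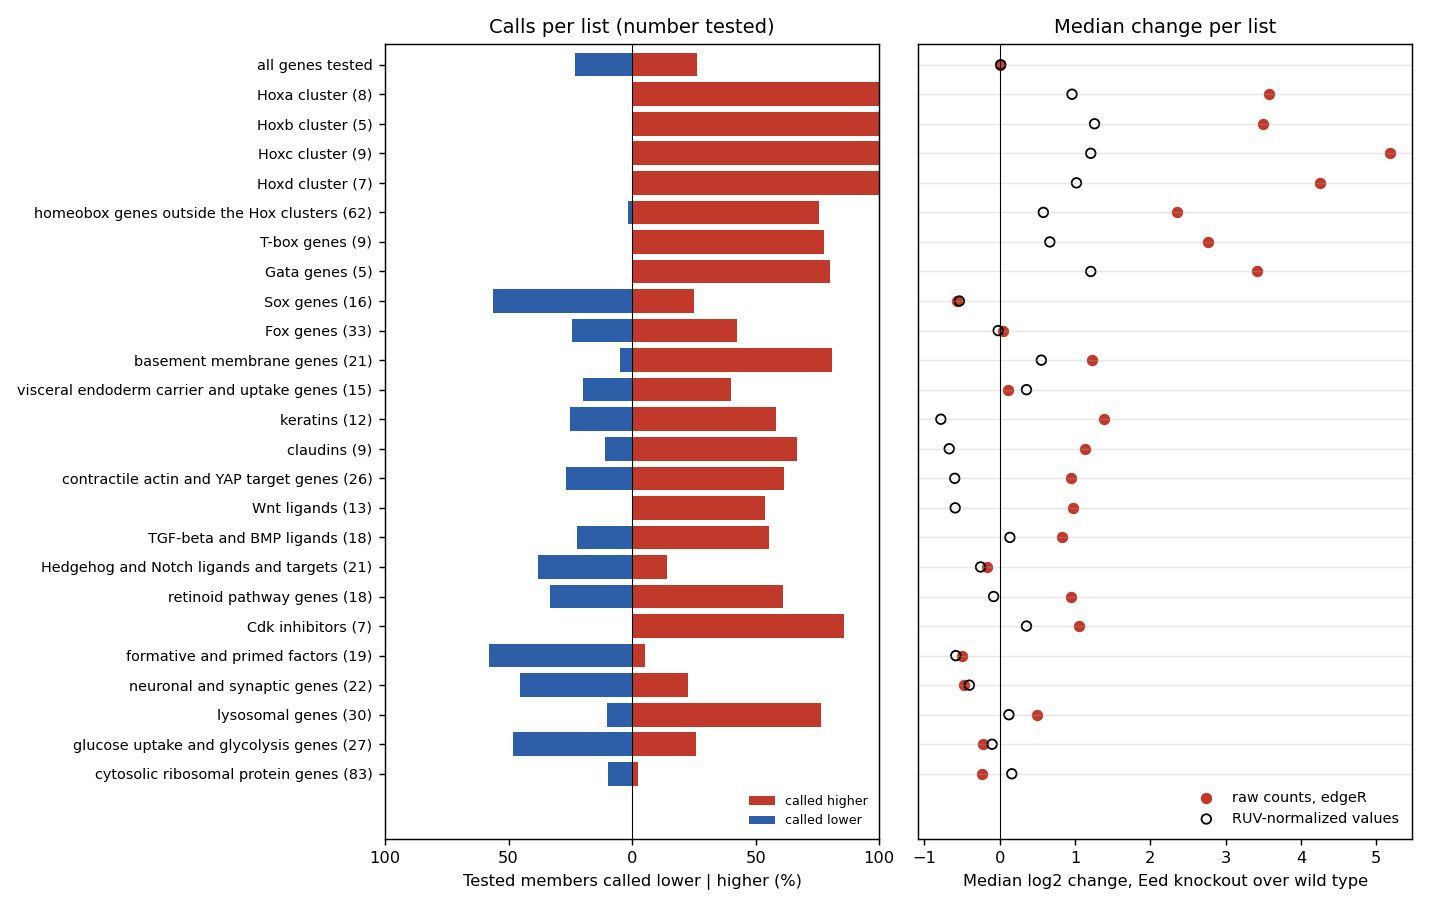
Left panel, percent of the tested members of 24 gene lists called higher or lower in the Eed knockout, with all 15083 genes at the top; right panel, median log2 change of each list, filled for raw counts and open for RUV-normalized values. Hox, other homeobox, T-box and basement membrane lists lie to the right of 0 in both, keratins, claudins, contractile and Wnt ligand lists change side, and Sox genes lie to the left in both.

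The Eed knockout was next compared with the Ezh2 knockout directly, in libraries of the same line and time. Of all genes 23.5% were higher in the Eed knockout than in the Ezh2 knockout and 21.5% lower. Cbx8 (1.22 ± 0.19) and Bmi1 (2.48 ± 0.13) were higher in the Eed knockout, with adjusted p-values of 6.1e-07 and 7.3e-23 in edgeR. Col4a1 stood at 125 to 152 CPM in the Ezh2 knockout and was higher in the Eed knockout by 3.26 ± 0.19 (edgeR adjusted p = 3.9e-19). In the list of basement membrane genes 15 of 21 were higher in the Eed knockout than in the Ezh2 knockout and 1 lower. Hoxa genes were higher in 4 of 8, Hoxb genes in 5 of 5, Hoxc genes in 8 of 9, Hoxd genes in 6 of 7 and Cdk inhibitors in 4 of 7. Only 19 of the 29 Hox genes passed the filter without Eed knockout libraries. For the other Hox genes a higher level in the Eed knockout was in part given by that filter. By contrast Insm1 stood at 6.18 to 7.11 CPM in the Ezh2 knockout and the direct difference was -0.54 ± 0.26 (edgeR adjusted p = 0.087). For Gna14 the direct difference was 0.06 ± 0.36 (adjusted p = 0.93). For Dnmt3a, at 476 to 485 CPM in the Ezh2 knockout, it was -1.47 ± 0.10 (adjusted p = 1.2e-18), and for Ifitm3 it was -1.47 ± 0.17 (adjusted p = 7.2e-10). In V19 against 1A wild type 5% of genes were higher and 5.54% lower. There 0 of 29 Hox genes tested and 0 of 21 basement membrane genes were higher, and 3 of the latter were lower. Hox genes that passed the filter only through Eed knockout libraries had little room for a call there. Other lists did differ, with 4 of 8 primitive endoderm factors, 5 of 26 germline genes and 8 of 20 naive factors higher, and 0, 1 and 1 lower.

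After 96 h in 2i the same 2 lines were compared in libraries not used at 0 h. There 30.8% of genes were higher in the Eed knockout and 24.2% lower. At a fold of 2 or more, 17.5% were higher and 4.67% lower. Of the 2101 genes at least 2-fold higher at 0 h, 1425 were also at least 2-fold higher at 96 h, which is 67.8% of those at 0 h and 54.0% of those at 96 h. Of the 722 genes at least 2-fold lower at 0 h, 192 were so at 96 h, which is 26.6% and 27.2%, and 61 were at least 2-fold higher at 96 h. Of the 2101 higher genes, 493 passed the filter on low counts only through Eed knockout libraries, which include those of 96 h. Of the 722 lower genes, 6 did. A rise at both times is in part given by that filter, so the shares of rises and falls kept at 96 h are not directly comparable. The change itself differed between the times in 27.1% of genes. Genes named next were chosen for their change at 0 h, so a smaller change at 96 h is in part given by that choice. Foxp1 was at 6.83 to 8.24 CPM in wild type and 5.09 to 6.67 CPM in the knockout at 96 h, a difference between times of 3.37 ± 0.26 (edgeR adjusted p = 1.6e-15). Gna14 differed between times by 5.86 ± 0.43 (adjusted p = 3.9e-16) and Atcay by 3.68 ± 0.74 (adjusted p = 9.5e-05).

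Rises that shrank in 2i included basement membrane genes, 13 of 21 of which had a lower change at 96 h than at 0 h, against 12.2% of all genes. Lama1 stood at 68.7 to 75.3 CPM in wild type and 121 to 139.8 CPM in the knockout at 96 h (0.86 ± 0.23), a difference of -2.56 ± 0.33 from 0 h (edgeR adjusted p = 4.1e-08). Cbx8 stood at 8.46 CPM in wild type at 96 h, and its change went to 0.68 ± 0.17, a difference of -2.90 ± 0.36 (adjusted p = 4.0e-09), and Fbp2 to 2.02 ± 0.12 (-4.10 ± 0.27, adjusted p = 6.7e-18). Hand1 had a larger change at 96 h, 8.82 ± 0.31 (2.80 ± 0.72, adjusted p = 0.0021). Eed itself stayed low, at 18.5 to 19.6 CPM, and its change did not pass the test of a difference between times (-0.15 ± 0.17, adjusted p = 0.54).

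**Figure D5:**
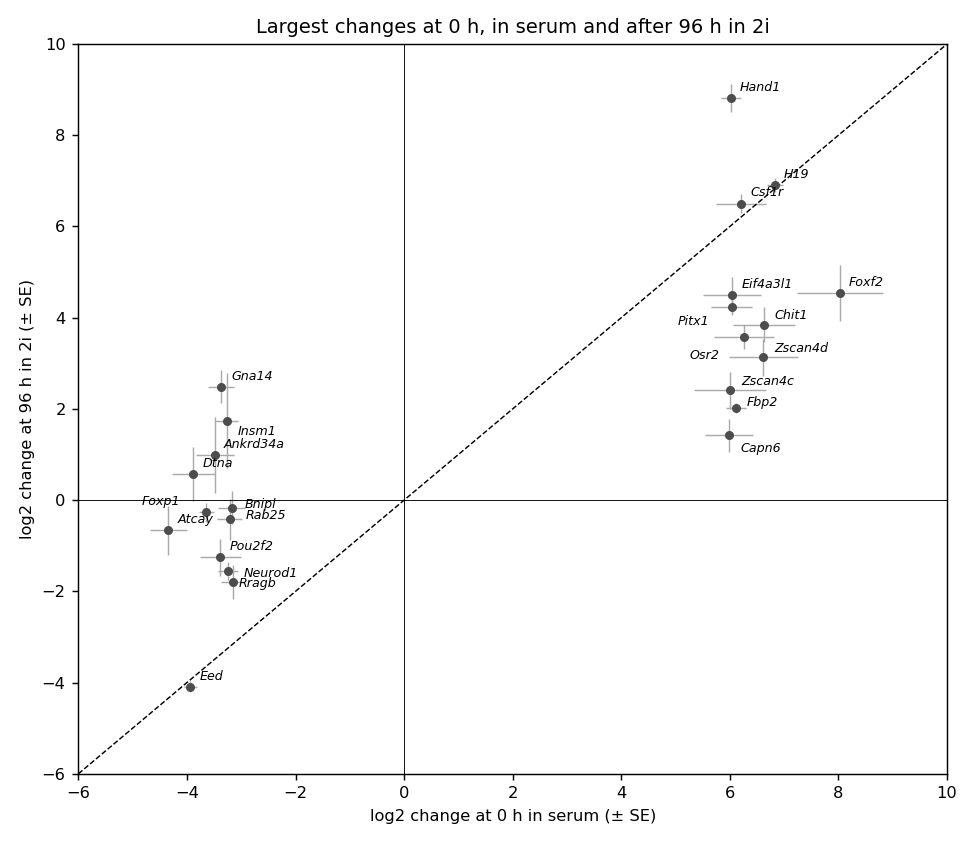
Log2 change in the Eed knockout at 0 h in serum (horizontal) and after 96 h in 2i (vertical) for the 12 largest rises and 12 largest falls at 0 h, with standard errors as bars and a dashed line of equal change. The falls other than Eed, Neurod1, Rragb and Pou2f2 lie above -1 at 96 h, and all 12 rises stay positive.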

How the data were processed

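Gene expression was measured by RNA-seq in 60 libraries of mouse embryonic stem cells, of which 6 make up the comparison described. Polyadenylated RNA was made into libraries with a kit that keeps no strand, pooled and read on 2 flowcells whose reads were merged, per the labels' protocols. The deposited count table holds raw read counts per gene, and the submitters' processing notes name STAR 2.7.10b, featureCounts 2.0.3, DESeq2 and build GRCm39. A second deposited table holds RUV-normalized values, treated here as a score with no fixed unit: the authors' factors and control genes are not given in the sources used here.

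Counts were fitted with edgeR 4.0.16 (R 4.3.3; TMM, filterByExpr with a minimum count of 10, robust quasi-likelihood) over 20 groups and 60 libraries, with Benjamini-Hochberg adjustment over 15083 genes. The RUV-normalized scores were tested with limma 3.58.1 on log2(value + 1). Alternatives were RLE factors, all genes with a count, genes with a mean CPM of at least 1, DESeq2 1.42.0, a replicate block, fits of only the groups compared and each library left out. An edgeR fit of simulated counts for only the 6 libraries compared, without genes under 1 CPM in wild type, called 11 of 13106 unchanged genes. It called 39 of 65, 56 of 69 and 60 of 66 genes changed 1.5-fold, 2-fold and 4-fold. The reported fit covers 60 libraries, genes at lower levels and many more changes, so these rates do not carry over to it.

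Libraries held 3990421 to 6901840 counts, so genes at a few CPM rest on few reads. The sample titles gave the groups. Members and gene lists were chosen with earlier results of these data known. Named genes were all members of the PRC2, PRC1 and Cdk inhibitor lists, up to 12 per direction with the largest change (mean of at least 5 CPM in the higher group, no overlap between groups, no predicted genes, pseudogenes or RIKEN symbols), up to 8 with the largest gain or loss in CPM, and per list up to 8 called members with the smallest adjusted p and up to 3 not called with the highest wild-type level. Dll1, Foxn3, Foxo1, Foxp4, Gapdh, Hspg2, Igf2r, Klf4, Ldha, Lgr4, Nid1, Nid2 and Zdbf2 were chosen after their values were seen. Promoter sequences are from RefSeq (GRCm38.p6), chosen after values were seen, and their CpG content was not compared over all tested genes because windows matched 75.8% of them (76.1% with synonyms), under the 80% needed, which makes such a check void. Some genes that the naming rule covers are not reported here.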

Additional observations from a re-analysis of the deposited data

Results flagged for a closer look

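For 15 of the 24 genes with the largest changes at 0 h, the change at 96 h in 2i minus that at 0 h in serum passed edgeR's interaction test and was at least 4-fold. The genes were chosen for the size of their change at 0 h, so a smaller change at 96 h is in part given by that choice. Among the 12 largest rises, 5 were smaller at 96 h, with a log2 difference of Zscan4d -3.48 (adjusted p = 0.017), Osr2 -2.69 (adjusted p = 0.023), Fbp2 -4.10 (adjusted p = 6.7e-18), Zscan4c -3.60 (adjusted p = 0.0084) and Capn6 -4.57 (adjusted p = 2.2e-06). Hand1 had a larger rise at 96 h, by 2.80 (adjusted p = 0.0021). Among the 12 largest falls, 9 were smaller at 96 h or turned into rises, with a difference of Atcay 3.68 (adjusted p = 9.5e-05), Dtna 4.45 (adjusted p = 6.3e-06), Foxp1 3.37 (adjusted p = 1.6e-15), Ankrd34a 4.48 (adjusted p = 2.0e-04), Pou2f2 2.13 (adjusted p = 0.0071), Gna14 5.86 (adjusted p = 3.9e-16), Insm1 5.00 (adjusted p = 2.5e-04), Bnipl 2.79 (adjusted p = 7.1e-05) and Rab25 3.01 (adjusted p = 6.8e-07). Each group held 3 libraries, too few to test a single library as standing apart from its group.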

How the results depend on the processing

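Counts of called genes kept within 1.5 times of the reported counts with RLE size factors, without a filter, with a filter at a mean of 1 CPM, with DESeq2 and, apart from V19 against 1A, in fits of only the groups compared, where V19 gave 2417 against 1589. In the RUV-normalized values (limma) fewer genes were called for Eed knockout against wild type at 0 h (3003 against 7459, with 1546 higher and 1457 lower), for Eed against Ezh2 knockout (1732 against 6800) and for the Eed knockout at 96 h (3454 against 8305), and 467 genes against 2101 were at least 2-fold higher. With 1 library left out in turn the 0 h calls ranged from 6603 to 6952 (higher 3551 to 3731, lower 3052 to 3221), at least 2-fold higher from 2032 to 2094 and lower from 713 to 758, Eed against Ezh2 from 5856 to 6223, Ezh2 against wild type from 2747 to 2925, V19 against 1A from 1187 to 1234, the Eed knockout at 96 h from 7500 to 7780 and the difference between times from 3481 to 3829. Of genes under 0.1 CPM in V19, 51.8% against 61.8% were higher once Eed libraries were kept out of the filter. With the replicate number as a block 7423 genes were called at 0 h, and among genes named in the text the block ended the Pcdhgc3 call (edgeR adjusted p = 0.0508). Genes not called that passed otherwise were Ezh1 (0.0416) and Slc38a4 (0.0437) with the 1 CPM filter, Ezh1 (0.0195), Slc38a4 (0.00371), Esrrb (0.0132), Bmp4 (0.0194) and Dnmt3l (0.0372) in fits of only the groups compared, and Cdkn1b (0.0457 without knockout replicate 2), Bmp4 (0.0495 without knockout replicate 3) and Slc38a4 (0.0305 without wild-type replicate 3), all edgeR adjusted p. Same-numbered libraries of the 2 genotypes deviated from their group means with r = -0.04, 0.0214 and 0.04 across genes, and wild-type replicate 1 correlated best with knockout replicate 2 (0.0471), so the numbers do not pair the libraries.

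Of 237 genes named, 134 kept their direction and side of the threshold in the RUV-normalized values, 53 kept the direction only, 3 passed the threshold there only and 47 turned, and the cause was not tested. Called falls that turned, with their RUV-normalized log2 change, were Apoe 0.40, Atf4 0.22, Cbx6 0.019, Chac1 0.37, Fgf4 0.21, Fzd7 0.049, Gbx2 0.20, L3mbtl2 0.27, Ncl 0.012, Nr0b1 0.62, Pcgf2 0.20, Pcgf6 0.0044, Phc1 0.10, Rarg 0.43, Sox2 0.13, Trp53 0.060 and Uhrf1 0.063. Called rises that turned were Bcor -0.11, Cdkn1c -2.43, Cdkn2b -0.75, Cyp26a1 -0.93, Dlk1 -0.26, Dlx3 -0.076, Ezhip -0.23, Gata2 -0.17, H19 -0.16, H2-D1 -0.38, H2-K1 -0.74, Igf2r -0.042, Krt18 -0.79, Krt8 -0.58, Lrp2 -0.17, Pax3 -0.19, Peg10 -1.72, Perp -0.38, Rbbp7 -0.13, Rxra -0.14, Tap1 -0.69 and Wnt7b -1.15. Genes not called whose sign turned were Cdkn1b 0.16, Ezh1 -0.015, Gata1 -0.42, Hhex 0.11, Id1 0.20, Ring1 -0.047, Slc38a4 -1.14 and Tet2 0.39. Cdh1, near 0, turned with RLE (0.0024), the 1 CPM filter (0.032), DESeq2 (0.0030) and only the groups compared (0.027), and ranged from -0.030 to 0.022 with 1 library left out. Nodal ranged there from -0.046 to 0.094 and Tet2 from -0.18 to 0.039. On simulated counts with known changes, 60% of 1.5-fold, 81.2% of 2-fold and 90.9% of 4-fold changes were called, so smaller changes can be missed at this depth. Those counts covered only the 6 libraries compared and genes of at least 1 CPM in wild type. The shares do not carry over to the reported fit of 60 libraries. The planned comparison of promoter CpG content was not run, since windows matched 75.8% of tested genes, under the 80% needed.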

Other observations

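Cell surface and signalling families outside the comparisons above also held called members, read against 26.3% of all genes higher and 23.1% lower. Of 24 integrin genes tested 11 were higher and 2 lower. The fibronectin and vitronectin receptor chains Itgav (23.8 to 59.3 CPM, 1.32 ± 0.14) and Itgb3 (2.92 to 16.3 CPM, 2.48 ± 0.22) and the laminin receptor chain Itga7 (3.18 to 13.9 CPM, 2.11 ± 0.22) were among the higher ones. Of 18 Eph receptors and ephrins, which signal between touching cells, 8 were higher and 4 lower. The ligand genes Efnb1 (3.84, 4.08 and 3.81 CPM to 35.5, 31.7 and 32.5 CPM, 3.08 ± 0.17) and Efna3 (2.19 ± 0.17) and the receptor gene Ephb3 (26.2 to 70.9 CPM, 1.45 ± 0.13) rose, while the receptor gene Epha7 fell (6.4 to 1.88 CPM, -1.71 ± 0.30). Of 36 potassium channel genes tested out of 80 listed, 13 were higher and 9 lower. With the filter applied without Eed knockout libraries, 8 of 29 were higher and 9 lower (median -0.30), and in the RUV-normalized values 2 were higher and 8 lower. Kcnk13 (0.407 to 3.01 CPM, 3.0 ± 0.57) and Kcng1 (2.13 ± 0.25) were higher, and Kcnk5 (46.5 to 24 CPM, -0.94 ± 0.13) and Kcnh3 (-1.44 ± 0.20) lower.

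Of 14 mesendoderm genes tested 11 were higher and 0 lower, although T and Mesp1, which mark early mesoderm, were below the filter. Pdgfra, a receptor of primitive endoderm and mesoderm, went from 2.66, 2.77 and 1.78 CPM to 40.1, 42.4 and 52.7 CPM (4.17 ± 0.23). Of 16 mesenchymal genes 4 were higher and 2 lower, and in the RUV-normalized values 2 were higher and 4 lower (median -0.38). The repressor gene Snai1 rose (3.54 to 17.8 CPM, 2.38 ± 0.26) and the receptor kinase gene Axl fell (8.76 to 3.49 CPM, -1.31 ± 0.20). Of 21 genes of Atf4 and amino acid stress 3 were higher and 9 lower (median -0.368; 1 to 3 higher when 1 library was left out in turn), while in the RUV-normalized values 8 were higher and 1 lower (median 0.312). The list holds the glutathione-degrading enzyme gene Chac1 at 37.8, 29.7 and 34.3 CPM in wild type and 17.4, 14.8 and 13 CPM in the knockout (-1.17 ± 0.14, RUV-normalized 0.37). Atf4 itself fell (-0.59 ± 0.08) with a RUV-normalized change of 0.22.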
